A study of Mus musculus with 4 samples.

Results

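The 6 genes described are those that encode the PPAR nuclear receptors (Ppara, Ppard and Pparg) and their RXR partners (Rxra, Rxrb and Rxrg). Open chromatin was taken as every ATAC-seq peak whose summit lay within 100 kb of any annotated transcription start site (TSS) of a member, and overlapping peaks of the 4 peak lists were merged into 1 site. This gave 476 peaks and 173 sites, of 87396 sites within 100 kb of any protein-coding gene and 100608 sites in all. Ppara had 29 sites, Ppard 31, Pparg 29, Rxra 49, Rxrb 29 and Rxrg 6, and no site was counted for more than 1 member.

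ATAC-seq marks DNA that the Tn5 transposase can reach in the nucleus. It was run on im-scWAT cells, preadipocytes from the stromal vascular fraction of mouse subcutaneous white fat, immortalised with SV40 large T antigen. WT cells came from Jmjd1a +/+ mice and HY cells from Jmjd1a HY/HY mice, which make a JMJD1A protein without H3K9 demethylase activity, and both sets of mice were 5 weeks old. Cells of each genotype were taken before differentiation (D0) and on day 8 (D8), after 2 days of indomethacin, dexamethasone, 3-isobutyl-1-methylxanthine, rosiglitazone, insulin and T3 and 6 further days of insulin, T3 and rosiglitazone. There was 1 library per group, so each difference compares libraries and has no replicate check, no test was made, and all intervals (95%) cover counting error only. Whether each genotype was 1 immortalised culture or several was not given in the sources used here.

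PPARs are ligand-activated transcription factors that bind DNA as heterodimers with an RXR, at direct repeats of a hexamer spaced by a single base (DR1). PPARγ is required for fat cells to form and is the target of rosiglitazone, so every D8 culture had received an agonist of 1 of the proteins described here. PPARα drives fatty acid oxidation in liver and brown fat, PPARδ (from Ppard) is expressed widely and acts on oxidative metabolism, and the RXRs, the receptors for 9-cis retinoic acid, also pair with thyroid hormone, vitamin D, liver X and retinoic acid receptors.

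The background rates of the lists, a measure of relative depth, were 0.659 (D0) and 0.531 (D8) tags for WT and 0.708 and 0.494 for HY, and the lists held between 41228 and 77994 peaks. The summit pileup is the number of overlapping extended tags at the top of a peak, solved from the deposited enrichment and -log10 p, and ratios between libraries were taken after each pileup was divided by its list's background rate (the scaled pileup). At that rate the lowest summit pileup called was 4 or 5 tags. Where the local background was higher, more tags were needed. At Ppara site 8 in HY D0 it was 11.4, and 27 tags gave a -log10 q of 2.49. A site with no peak may thus hold a few tags, or more where local background was high. No fold was computed against such a site. Where values of all 4 libraries are given in a row, the order is WT D0, WT D8, HY D0, HY D8. Cell type markers were read by their promoter peaks. Of 5 adipocyte markers (Adipoq, Fabp4, Plin1, Cidec and Lpl) 1 had a promoter peak at D0 and all 5 had one at D8 in both genotypes, with summed promoter pileups of 27 (D0) and 195 (D8) for WT and 29 and 196 for HY. Of 5 preadipocyte or fibroblast markers, 5 (D0) and 2 (D8) had a promoter peak in WT and 3 and 2 in HY, with sums of 185 and 37, and 143 and 32. Ptprc, Csf1r, Cd68, Cx3cr1 and Itgam of macrophages had none in any library. Of 5 endothelial promoters, 3 (D0) and 0 (D8) were open in WT and 2 and 1 in HY (pileups of 9 to 23 at D0 and 4 at D8, with Cdh5 and Tie1 at none), and 1 of 5 skeletal muscle promoters was open, in WT D8 only.

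Around the 6 genes, sites open only at D8 were more frequent than in the genome at large. In WT cells, 35 of 149 sites (23.5%) had a peak at D8 and none at D0, against 12.3% of all sites, and 45 (30.2%) had a peak at D0 only, against 50.4%. HY cells gave 32 of 154 (20.8%) at D8 only, against 13.8%, and 45 (29.2%) at D0 only, against 46.9%. The median summit pileup of the 35 WT sites was 17 tags (range 8 to 55) and of the 32 HY sites 18 tags (5 to 56), where all D8-only sites had medians of 11 and 10. Of the WT sites 32 were distal and 3 at promoters, where all 8420 WT D8-only sites had 7695 distal and 725 at promoters. The adipocyte promoters given above opened between the same libraries, and their part in these counts was not tested. In bulk chromatin, more cells with an open site and a more open site per cell cannot be told apart.

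Both genotypes shared most of these patterns. Sites open in all 4 libraries numbered 61 of 173 (35.3%, against 26.3% of all sites). Those open at D8 in both genotypes and at D0 in neither numbered 23 (13.3%, against 6.11%), and the reverse class numbered 24 (13.9%, against 23.6%). The D0 lists were longer than the D8 lists. When each list was cut to its 41228 strongest peaks, D8-only sites were 50 of 123 (40.7%, against 25.5%) in WT and 38 of 118 (32.2%, against 25.5%) in HY. D0-only sites were then 19 of 123 (15.4%, against 31.7%) in WT and 18 of 118 (15.3%, against 30.2%) in HY, so that D8-only sites outnumbered D0-only sites, the reverse of the order with the full lists.

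**Figure D1:**
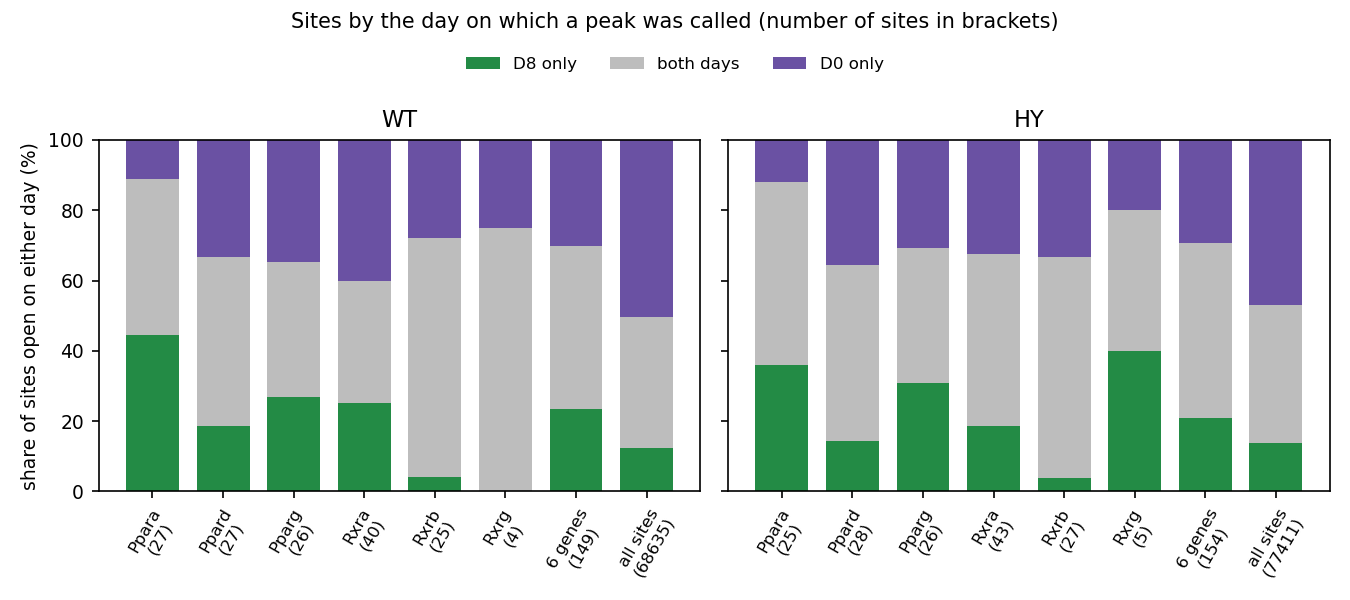
Share of sites (y axis, percent) with a peak at D8 only, on both days or at D0 only, for WT on the left and HY on the right, with the number of sites open on either day in brackets on the x axis. Ppara has the most D8-only sites in WT (12 of 27), Rxrb 1 of 25, and the 6 genes together have 35 of 149 where all sites have 8420 of 68635.

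The genes differed among themselves. Rxra had 8 sites open at D8 only in both genotypes, Ppara 7, Pparg 5 and Ppard 3, and Rxrb and Rxrg had 0. Of 22367 protein-coding genes, 99.6% had fewer such sites than Rxra, 99.2% fewer than Ppara, 97.0% fewer than Pparg and 88.8% fewer than Ppard, and the median gene had 0. These ranks are by number: as a share of its sites the class was 24.1% for Ppara, 17.2% for Pparg, 16.3% for Rxra and 9.68% for Ppard, against 6.11% of all sites. Windows were not of equal length (205 kb for Rxrb to 264 kb for Rxra), since each spanned all TSSs of its gene. Under a -log10 q minimum of 5, Rxra sites 3, 11, 18 and 22 and Ppara sites 6, 14 and 22 left this class. Rxra sites 7 and 10 and Ppara site 8 then joined it, and ranks were not computed under that setting. The opposite class, open at D0 only in both genotypes, held 1 site for Ppara, 7 for Ppard, 6 for Pparg, 5 each for Rxra and Rxrb and 0 for Rxrg, with 3 for the median gene, which had 14 sites in all. As a share of its sites this class was 3.45% for Ppara, 22.6% for Ppard, 20.7% for Pparg, 10.2% for Rxra and 17.2% for Rxrb, each below the 23.6% of all sites.

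**Figure D2:**
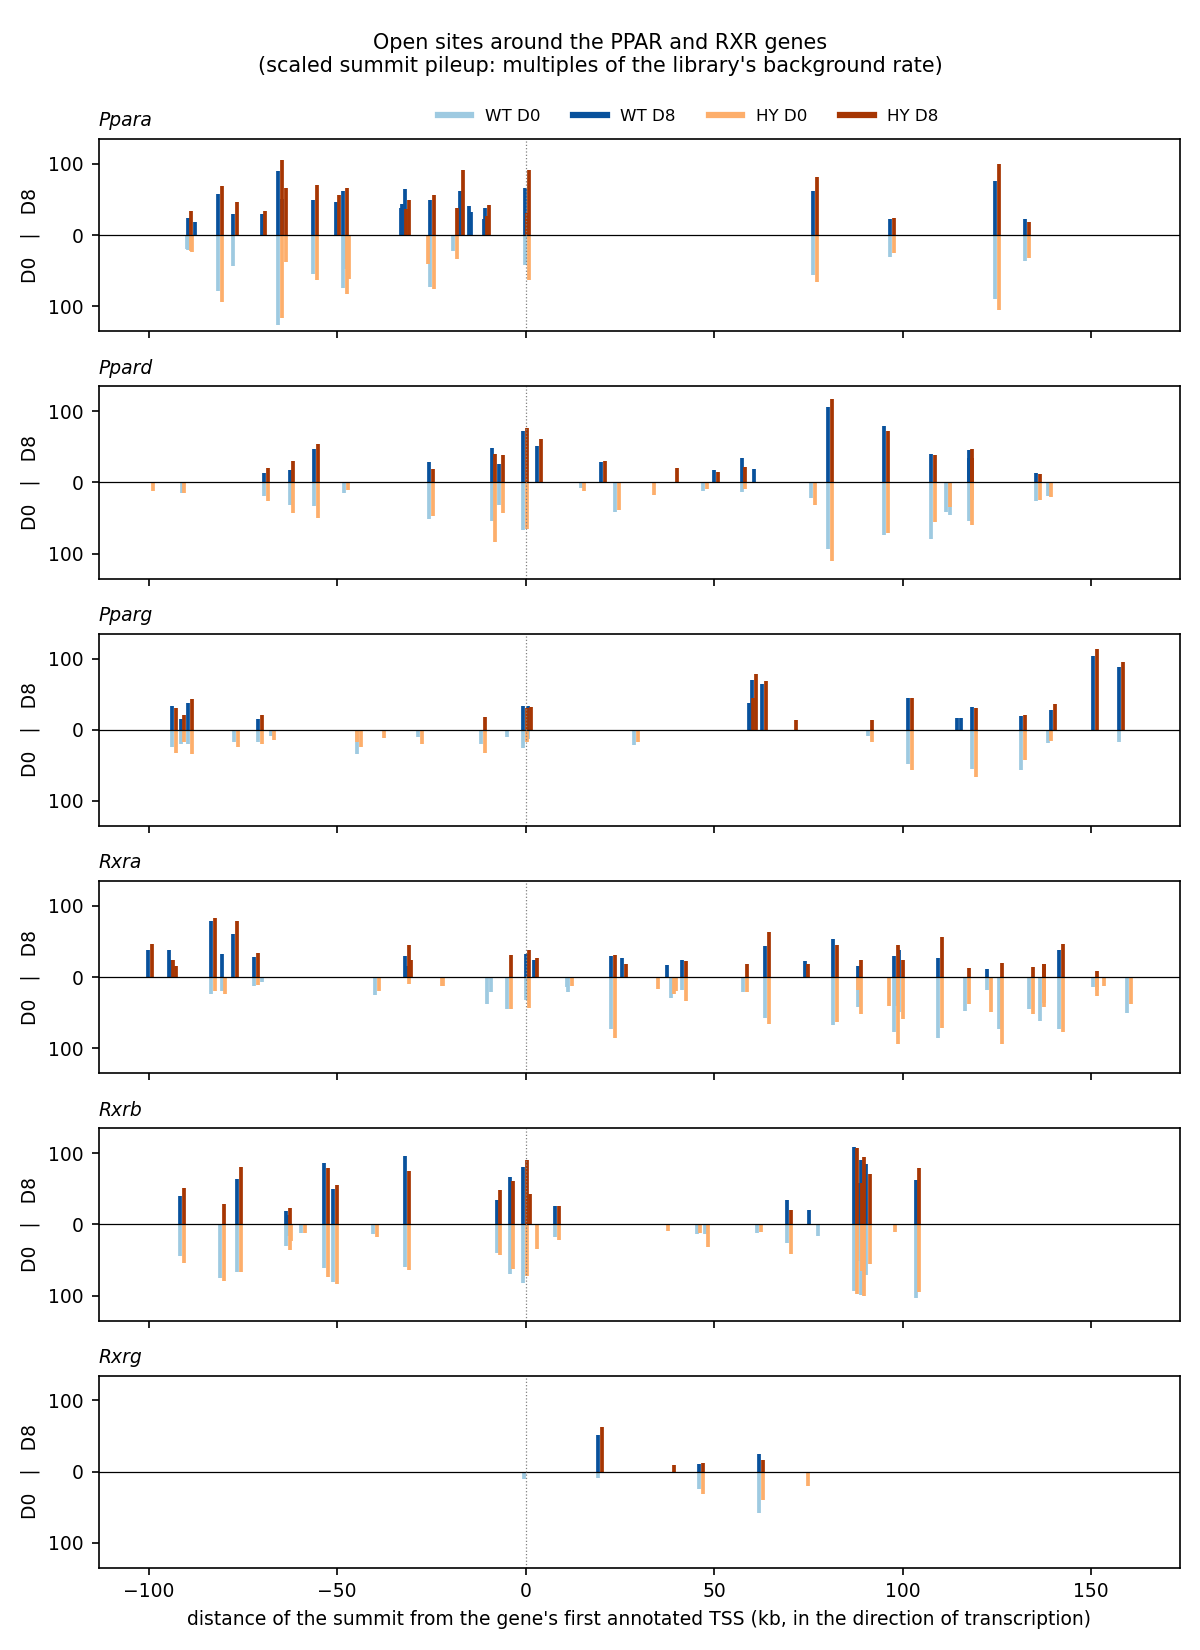
Each bar is 1 site near the named gene, placed by the distance of its summit from the gene's first annotated TSS (x axis, kb) with its scaled summit pileup (y axis, multiples of the library's background rate) drawn upwards for D8 and downwards for D0, in blue for WT and in orange or brown for HY. D8 bars without a D0 bar below them stand upstream of Ppara, at 60.6 and 151 kb in Pparg, and at -77.1 kb in Rxra, and the bars downstream of Rxra are longer on the D0 side.

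Pparg, whose product directs adipogenesis, was open on both days at 1 of its 2 TSSs and at D8 only at the other. The first TSS (chr6:115311239, mm9, transcript Pparg-202, 476 codons with the stop, the layout of Pparg1) had summit pileups of 17 tags at D0 and 18 at D8 in WT cells, and 12 and 15 in HY cells. The D8/D0 ratio there was 1.31 (0.639 to 2.71) for WT and 1.79 (0.782 to 4.19) for HY, and both intervals included 1. The second TSS, 60.8 kb into the locus (chr6:115372084, Pparg-201, 506 codons, the layout of the fat-restricted Pparg2), had no peak at D0 in either genotype and pileups of 37 (WT) and 39 (HY) at D8.

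3 sites clustered at that second TSS. The peak with its summit at -290 bp from it (Pparg site 17, chr6:115371711-115372244) reached a -log10 q of 20.8 (WT) and 21.8 (HY) at D8. A smaller neighbour at -934 bp (site 16) had 20 and 22 tags, and a site 2487 bp after it, in an intron (site 18, chr6:115374197-115374816), had 34 tags in both D8 libraries. All 3 were without a D0 peak in both genotypes.

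The strongest D8-only site of the 6 genes lay past the end of Pparg. Pparg site 28 (chr6:115461150-115462153, intergenic, 151 kb from the first TSS) had 55 tags (WT) and 56 tags (HY) at D8, with -log10 q of 43.7 and 43.6. Site 29 (chr6:115469265-115469821), 158 kb from the first TSS, had 11 tags at D0 and 47 at D8 in WT cells, and none called and 47 in HY cells, and its WT ratio was 5.3 (2.71 to 11.3). No TSS of another protein-coding gene lies within the Pparg window, and 18 of the 29 sites were nearest to a Pparg TSS.

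Sites 17, 28 and 29 are printed because they had the highest pileups of Pparg at D8. Each sequence is 200 bp around the summit, plus strand of mm9 (site 17 at chr6:115371694-115371893, site 28 at chr6:115461681-115461880, site 29 at chr6:115469477-115469676), with matches to the C/EBP consensus TTGCNNAA, on either strand, in capitals. The match of site 17 also overlaps the NFI element TTGGCA on the minus strand.
Pparg site 17: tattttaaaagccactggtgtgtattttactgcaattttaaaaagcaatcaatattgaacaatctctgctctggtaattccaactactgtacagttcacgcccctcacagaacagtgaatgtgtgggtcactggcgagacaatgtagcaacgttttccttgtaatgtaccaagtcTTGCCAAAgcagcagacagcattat
Pparg site 28: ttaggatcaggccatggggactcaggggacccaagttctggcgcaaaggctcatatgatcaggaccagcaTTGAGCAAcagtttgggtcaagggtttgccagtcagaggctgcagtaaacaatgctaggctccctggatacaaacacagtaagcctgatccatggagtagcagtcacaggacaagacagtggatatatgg
Pparg site 29: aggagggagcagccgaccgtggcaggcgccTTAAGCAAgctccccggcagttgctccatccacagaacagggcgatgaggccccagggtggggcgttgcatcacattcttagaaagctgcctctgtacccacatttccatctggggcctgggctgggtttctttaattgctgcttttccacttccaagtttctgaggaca

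Other Pparg sites had a peak at D0 and none at D8. Upstream of the first TSS, 11 of 13 sites were open in WT D0 and 5 in WT D8 (84.6% and 38.5%), and 12 and 6 in HY (92.3% and 46.2%). Over all sites near protein-coding genes the share open dropped in the same way, from 68.9% to 39.0% for WT and from 76.4% to 47.0% for HY. The D0-only sites with the highest q were site 8 at -44.2 kb (22 tags in WT D0, 17 in HY D0) and site 15 in an intron at 29.3 kb (14 and 12 tags). Site 25, 132 kb from the first TSS and past the 3' end, stayed open but was lower at D8: 37 tags at D0 and 10 at D8 in WT cells, and 30 and 10 in HY cells, ratios of 0.335 (0.149 to 0.688) and 0.477 (0.208 to 1.0), from summits 161 bp (WT) and 440 bp (HY) apart. Its D8 peaks had a -log10 q of 4.74 (WT) and 4.89 (HY), and both were lost under a minimum of 5. Summed over all Pparg sites, scaled pileup at D8 was 1.55 times (WT) and 1.58 times (HY) that at D0, where the median gene with at least 10 sites stood at 0.716 and 0.761.

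**Figure D3:**
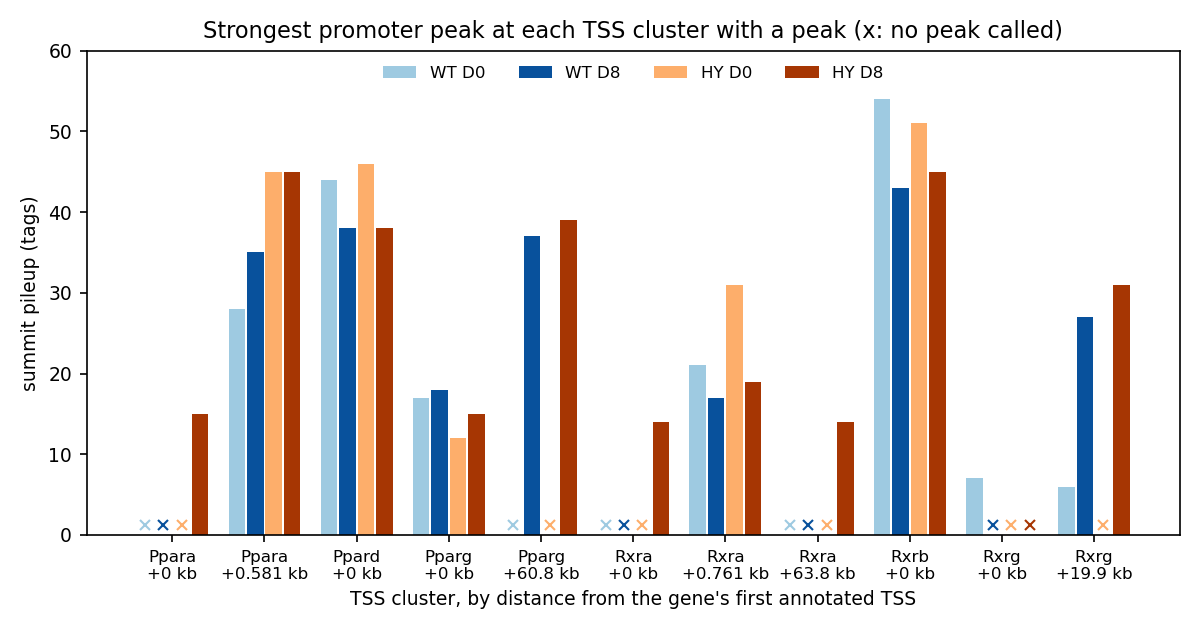
Bars give the summit pileup (y axis, tags, not scaled for depth) of the strongest promoter peak of each library at every TSS cluster (x axis) that had a peak in at least 1 library, with 1 library per bar and a cross where no peak was called. The second Pparg TSS has bars of 37 and 39 tags at D8 and crosses at D0, while Ppard and Rxrb have all 4 bars between 38 and 54 tags.

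Ppara, the receptor gene of fatty acid oxidation, had an open promoter at both days and D8-only sites that all lay upstream. Its promoter site (chr15:85565508-85566460) had 28 tags at D0 and 35 at D8 in WT cells, and 45 and 45 in HY cells. The D8/D0 ratio was 1.55 (0.917 to 2.65) for WT and 1.43 (0.926 to 2.21) for HY, and HY/WT was 1.5 (0.913 to 2.49) at D0 and 1.38 (0.868 to 2.21) at D8. None of these intervals excluded 1. A second small peak at -169 bp from the most upstream TSS was called in HY D8 only (15 tags), and the internal TSS at 37.2 kb had no peak in any library.

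Upstream of Ppara, 10 of 24 sites were open in WT D0 and 19 in WT D8 (41.7% and 79.2%), and 11 and 17 in HY (45.8% and 70.8%), while the share over all sites dropped. All 7 sites open at D8 only in both genotypes were in this stretch, from -69.5 kb to -10.2 kb. The site with the highest -log10 q of these, Ppara site 19 (chr15:85548246-85548705, -17.0 kb, intergenic), had 33 tags (WT) and 45 tags (HY) at D8. Site 15 at -31.5 kb had 34 and 24 tags, and site 10 at -49.9 kb had 25 and 28. Many of these sites are not nearest to Ppara: the let-7 genes Mirlet7c-2 and Mirlet7b lie between, and 4 of the 29 sites had a Ppara TSS as the nearest. Local background upstream of Ppara was high in places (11.4 at site 8 in HY D0). A site there without a peak may hold more than a few tags.

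The study assayed a Ppara enhancer about 10 kb upstream and the TSS by ChIP-qPCR, and the primer pairs placed both amplicons on mm9. The upstream amplicon (chr15:85555136-85555200) lay in site 23, which had no peak at D0 in either genotype and 20 tags (WT) and 21 tags (HY) at D8. In WT D0 the nearest peak was 8407 bp away and in HY D0 8243 bp. The TSS amplicon (chr15:85565658-85565733) lay in the promoter site described above, which was open in all 4 libraries.

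The windows of site 19, the strongest D8-only site, and of site 23, the assayed enhancer, are shown as 200 bp around the summit on the plus strand (chr15:85548349-85548548 and chr15:85555112-85555311). Neither holds a match to the 6 motifs searched (the single DR1 hexamer was not among them), so no letters are in capitals.
Ppara site 19: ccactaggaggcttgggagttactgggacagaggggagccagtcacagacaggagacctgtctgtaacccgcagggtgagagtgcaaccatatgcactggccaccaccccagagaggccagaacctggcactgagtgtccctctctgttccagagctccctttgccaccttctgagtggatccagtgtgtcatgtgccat
Ppara site 23: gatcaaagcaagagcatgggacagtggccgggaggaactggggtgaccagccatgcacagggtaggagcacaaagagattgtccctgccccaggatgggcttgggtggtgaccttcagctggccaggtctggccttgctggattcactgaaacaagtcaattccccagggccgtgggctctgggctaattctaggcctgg

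In WT D8 alone, 4 sites upstream of Ppara had a peak: site 3 at -87.2 kb with 10 tags, site 13 at -32.5 kb with 20, site 20 at -14.6 kb with 22 and site 21 at -14.1 kb with 17. Peaks in WT D8 alone made up 13.8% of the Ppara sites and 2.3% of all sites, and site 20 was the one of the 4 with a -log10 q of at least 5. None of the 4 was called in HY D8, where pileups below the calling limit cannot be seen. The reverse, a peak in HY D8 alone, was found for the 15-tag promoter peak (-log10 q 4.14), which made up 3.45% of the Ppara sites, against 4.93% of all sites. Of the Ppara sites on both days, none had a ratio of at least 2-fold in either direction, 12 sites in WT (0.621 to 1.55) and 13 in HY (0.56 to 1.75). Over all sites open on both days, 4.49% (WT) and 5.07% (HY) were at least 2-fold higher at D8. At least 2-fold higher at D0 were 13.7% and 15.9%. Site 12 at -47.2 kb was the sole Ppara site open at D0 only in both genotypes, with 31 tags (WT) and 44 tags (HY) at D0. Summed scaled pileup at D8 was 1.35 times (WT) and 1.3 times (HY) as high as at D0.

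Ppard, which encodes the broadly expressed PPARδ, had a promoter of similar pileup in all 4 libraries. At its main TSS cluster (chr17:28369699-28369752) pileups were 44 tags at D0 and 38 at D8 in WT cells, and 46 and 38 in HY cells, and the D8/D0 ratios were 1.07 (0.676 to 1.69) and 1.18 (0.749 to 1.86). The TSS cluster 39.0 kb downstream had no promoter peak. The intragenic sites were mixed. Of 10 sites within the gene, 3 were open at D8 only and 3 at D0 only in both genotypes (6.11% and 23.6% of all sites were). Site 20 at 57.8 kb was open in all 4 libraries, at 9, 18, 7 and 11 tags, with ratios of 2.48 (1.06 to 6.27) for WT and 2.25 (0.797 to 6.85) for HY.

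Ppard site 12 (chr17:28372973-28373891, intronic, 3.67 kb from the first TSS) had the highest q among its D8-only sites, with 27 tags (WT) and 30 tags (HY) at D8. Site 14 at 20.6 kb had 15 tags in both D8 libraries and site 19 at 50.6 kb had 9 and 7, the latter lost when a -log10 q of at least 5 was required. At D0 only, site 15 at 24.2 kb had 27 tags in both libraries. The window of site 12 (chr17:28373266-28373465, plus strand), shown as the strongest D8-only site of Ppard, has no match to those motifs.
Ppard site 12: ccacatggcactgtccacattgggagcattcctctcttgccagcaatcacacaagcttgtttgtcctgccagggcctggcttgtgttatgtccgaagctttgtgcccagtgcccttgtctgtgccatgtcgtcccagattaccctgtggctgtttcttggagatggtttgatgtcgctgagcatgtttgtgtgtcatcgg

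Outside the gene, the Ppard window holds the TSSs of 7 other protein-coding genes, and 12 of the 31 sites were nearest to Ppard. Of 11 sites upstream and 10 downstream of the gene, none was open at D8 only in both genotypes (6.11% of all sites were). At D0 only in both genotypes, 1 upstream and 3 downstream were open (23.6% of all sites were). Summed scaled pileup at D8 was 0.844 (WT) and 0.823 (HY) of that at D0.

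Rxra, the RXR gene expressed in most metabolic tissues, had more sites than 99.7% of protein-coding genes. The promoter site (chr2:27531670-27532585) was open throughout with 21 tags at D0 and 17 at D8 in WT cells, and 31 and 19 in HY cells, ratios of 1.0 (0.498 to 2.0) and 0.878 (0.468 to 1.6). The internal coding TSSs at 32.9 kb and 34.1 kb had no promoter peak, and that at 63.8 kb, of a non-coding transcript, had a summit in the promoter window in HY D8 (14 tags). The exonic site 29 (chr2:27595338-27596272), whose summit lay 236 bp from that TSS, also covered it and was open in all 4 libraries, with 38, 23, 47 and 31 tags.

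In the upstream flank, 5 of 16 sites were open at D8 only in both genotypes (6.11% of all sites were). Of the 16, 8 were open at D0 and 9 at D8 in each genotype, while over all sites the share open dropped, and others had a peak at D0 and not at D8. Site 9 was open at D0 only in both genotypes (17 and 14 tags), sites 8, 14 and 15 in WT D0 alone and sites 12 and 13 in HY D0 alone, and site 16 had 30 tags, none called, 32 and 15. Rxra site 6 at -77.1 kb (chr2:27454562-27455197) was the strongest D8-only site, with 32 tags (WT) and 39 tags (HY) at D8 and no peak at D0. Site 4 at -82.9 kb (chr2:27448778-27449308) was open on both days and higher at D8: 16 tags at D0 and 42 at D8 in WT cells, and 14 and 41 in HY cells. Its ratios were 3.26 (1.79 to 6.21) for WT and 4.19 (2.24 to 8.33) for HY, both intervals above 1. Site 7 (-71.6 kb: 8, 15, 8 and 17 tags) had ratios of 2.33 (0.926 to 6.34) for WT and 3.04 (1.24 to 8.15) for HY. Site 10 (-31.4 kb) had none called, 16, 7 and 22 tags, and its HY summits lay 329 bp apart, so its HY ratio of 4.5 (1.86 to 12.5) compares different positions of 1 site. The D0 peaks of sites 7 and 10 were lost both under a -log10 q minimum of 5 and with equal list lengths. Sites 1 to 8 had the transcript Gm13421 as the nearest TSS, at 36350 bp or more. The window of site 6 is shown as the strongest D8-only site of Rxra (chr2:27454729-27454928, plus strand), with a match to the NFI element TTGGCA, here on the minus strand, in capitals.
Rxra site 6: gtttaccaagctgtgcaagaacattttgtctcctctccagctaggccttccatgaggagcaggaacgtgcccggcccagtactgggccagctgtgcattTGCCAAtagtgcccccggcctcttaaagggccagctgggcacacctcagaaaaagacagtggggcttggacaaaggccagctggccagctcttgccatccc

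In the downstream flank, no site was open at D8 only. Of 18 sites past the 3' end, 13 were open in WT D0 and 6 in WT D8 (72.2% and 33.3%), and 17 and 11 in HY (94.4% and 61.1%), where the drop over all sites was from 68.9% to 39.0% for WT and from 76.4% to 47.0% for HY. Every shared site was lower at D8: 6 of 6 in WT, with a median ratio of 0.453 (range 0.31 to 0.776), and 11 of 11 in HY, with 0.43 (0.217 to 0.786). The median over all sites open on both days was 0.903 in WT and 0.895 in HY. Site 41 at 126 kb (chr2:27657910-27658498) had 48 tags at D0 and none called at D8 in WT cells, and 66 and 10 in HY cells, a HY ratio of 0.217 (0.0995 to 0.425). Site 49 at 160 kb, with 33 tags (WT) and 27 tags (HY) at D0, had no D8 peak. The last 6 of these sites were nearest to the TSS of Col5a1, a fibrillar collagen gene, whose TSS lay farther downstream, the last at -50227 bp from it.

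Within Rxra itself, 3 of 15 sites were open at D8 only in both genotypes (sites 18, 22 and 30, with 9 to 14 tags) and 2 at D0 only. Over all sites these shares were 6.11% and 23.6%. Site 21 in an intron at 23.3 kb had 48 tags at D0 and 16 at D8 in WT cells, and 61 and 15 in HY cells, ratios of 0.414 (0.219 to 0.742) and 0.352 (0.186 to 0.627). Over the whole window the summed scaled pileup was 0.645 (WT) and 0.695 (HY) as high at D8 as at D0, below the median gene, although the gene ranked high by its number of D8-only sites.

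Rxrb lies in the major histocompatibility region, with the TSSs of 14 other protein-coding genes in its window, and 2 of its 29 sites were nearest to Rxrb. Its promoter site (chr17:34168135-34169051), shared with the opposite gene Slc39a7, had 54 tags at D0 and 43 at D8 in WT cells, and 51 and 45 in HY cells. This was the highest promoter pileup of the 6 genes in WT D0, and the ratios were 0.988 (0.646 to 1.5) and 1.26 (0.827 to 1.92). 13 of the 29 sites were promoters, and 16 (55.2%) were open in all 4 libraries, against 26.3% of all sites. Genome-wide, 10497 of 15909 promoter sites and 12447 of 71487 distal sites were open in all 4. The part that promoters have in the Rxrb count was not tested. D8-only sites numbered 1 in WT (site 22, 11 tags) and 1 in HY (site 14, 21 tags, beside the promoter site). Over all sites open on either day, 12.3% (WT) and 13.8% (HY) were D8-only. Of 5 sites open at D0 only in both genotypes, site 9 (9 and 13 tags) and site 19 (9 and 22 tags) had the highest q. With no D8-only site shared by the genotypes, no sequence is shown.

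Rxrg, the RXR gene of skeletal muscle and brain, had 6 sites, and its strongest at D8 was an internal promoter. At the first TSS cluster (chr1:169528515-169528611, 464 codons) a peak of 7 tags was called in WT D0 and none in the other libraries, and it was lost with a -log10 q of at least 5 and with equal list lengths. At the second TSS, 19.9 kb downstream (chr1:169548440, Rxrg-004, 341 codons), site 2 (chr1:169548145-169548831) had 6 tags at D0 and 27 at D8 in WT cells, and none called and 31 in HY cells. The WT ratio was 5.59 (2.26 to 16.5), the highest of the 69 member sites open on both days in WT, and HY/WT at D8 was 1.23 (0.712 to 2.15). The 6-tag WT D0 peak was lost both with a -log10 q of at least 5 and with equal list lengths, and the site was then open at D8 only in both genotypes.

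Rxrg shared with Pparg an upstream TSS and a downstream TSS of which the downstream one was higher or only open at D8. Its 200 bp window (chr1:169548220-169548419, plus strand) is shown for that reason. Capitals mark a C/EBP match, and the same 8 letters, TTGCCAAA, stand in Pparg site 17, in both cases with the overlapping NFI element on the minus strand.
Rxrg site 2: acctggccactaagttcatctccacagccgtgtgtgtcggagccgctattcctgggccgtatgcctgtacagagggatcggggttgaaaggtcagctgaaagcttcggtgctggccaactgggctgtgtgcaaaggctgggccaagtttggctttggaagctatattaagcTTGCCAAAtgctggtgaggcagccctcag
Sites 4 and 5 were lower at D8: site 4 at 46.6 kb had 16, 6, 22 and 6 tags and site 5 at 62.5 kb had 38, 13, 28 and 8, with ratios of 0.425 (0.208 to 0.815) for WT and 0.409 (0.161 to 0.921) for HY at site 5, where the HY summits lay 268 bp apart. Site 6 at 74.3 kb was open in HY D0 only (14 tags), and site 3 at 38.8 kb in HY D8 only (5 tags).

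At sites open on both days, the median D8/D0 ratio was 0.896 at 69 member sites in WT (all sites 0.903) and 0.859 at 77 in HY (all sites 0.895). At least 2-fold higher at D8 were 6 of 69 in WT (8.7%, background 4.49%) and 4 of 77 in HY (5.19%, background 5.07%). At least 2-fold higher at D0 were 7 of 69 in WT (10.1%, background 13.7%) and 18 of 77 in HY (23.4%, background 15.9%), and 10 of the 18 belonged to Rxra. Among the 61 sites open in all 4 libraries, 16 were above 1 in both genotypes (26.2%, against 6885 of the 22944 such sites overall) and 34 below 1 in both (55.7%, against 46.7%). At least 2-fold higher at D8 in both were 3 (4.92%, background 2.49%) and at least 2-fold lower in both 6 (9.84%, background 7.5%). None was 2-fold in opposite directions.

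**Figure D4:**
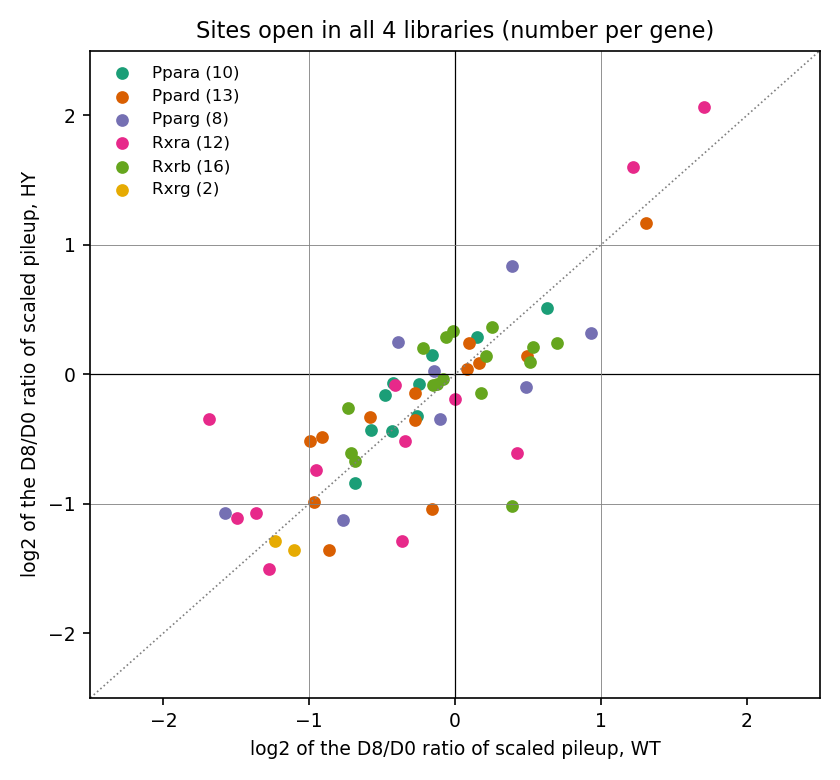
Each point is 1 of the 61 sites open in all 4 libraries, with the log2 of its D8/D0 ratio of scaled summit pileup in WT (x axis) and HY (y axis), coloured by gene, grey lines at 2-fold and a dotted diagonal. The 3 points beyond 2-fold in the upper right are Rxra sites 4 and 7 and Ppard site 20, and 6 points lie beyond 2-fold in the lower left.

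Fewer sites separated the genotypes than separated the days. At D0, 22 of 136 sites (16.2%) had a peak in HY and not in WT (background 20.5%) and 14 (10.3%) in WT and not in HY (11.9%). At D8 these were 18 of 122 (14.8%, background 25.0%) and 13 (10.7%, background 9.54%). With equal list lengths the order at D8 turned, to 15 sites in HY and not in WT and 19 in WT and not in HY. The count of 13 was 23 when summits within 250 bp were joined and 7 under a -log10 q minimum of 5. The peaks seen in 1 genotype were lower, with medians of 9 to 12 tags against 20 to 29.5 at sites of both genotypes. 8 of the 22 and 4 of the 14 at D0, and 3 of the 18 and 3 of the 13 at D8, had another peak of the library that lacked them within 500 bp. The part that the splitting of neighbouring peaks has in these counts was not tested.

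At sites open in both genotypes the median HY/WT ratio was 1.1 at D0 (100 sites, all sites 1.06) and 1.09 at D8 (91 sites, all sites 1.11). Promoters open in all 4 libraries were themselves shifted by 0.09 at D0 and 0.16 at D8 (log2, HY over WT), and against them the D8 median was 0.982. At least 2-fold higher in HY were 2 of 100 sites at D0 (background 2.0%) and 1 of 91 at D8 (1.57%), and at least 2-fold higher in WT were 0 of 100 (1.31%) and 0 of 91 (0.471%). The 3 sites were Rxra site 40 at D0 (12 tags in WT, 35 in HY, ratio 2.72, 1.38 to 5.75), Rxrb site 19 at D0 (9 and 22 tags, 2.28, 1.01 to 5.62) and Rxra site 38 at D8 (14 and 28 tags, 2.15, 1.09 to 4.42). Relative to the promoters open in all 4 libraries these ratios were 2.57 (1.3 to 5.42), 2.15 (0.953 to 5.3) and 1.94 (0.982 to 3.98), so Rxra site 38 was then under 2-fold and the intervals of both Rxrb site 19 and Rxra site 38 included 1.

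Among sites called in a single genotype on a day, those with the highest -log10 q at D0 were at Rxra. Site 14 at -9.64 kb had 25 tags in WT and no peak in HY, with a -log10 q of 18.4, and site 47 at 151 kb had 19 tags in HY and no peak in WT, with 13.5. Ppara site 5 at -77.1 kb had 29 tags in WT D0 and no peak in HY D0, yet was open at D8 in both (16 and 23 tags). At D8, the highest called in HY alone was Ppara site 1 (17 tags, -log10 q 7.94) and the highest called in WT alone was Ppara site 20 (22 tags, 7.5). Site 1 ended at chr15:85476277. The neighbouring site 2, which began at chr15:85476397, had a peak in WT D8 (13 tags) and none in HY D8.

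Short motifs in the 300 bp around each summit were counted on both strands. At sites open at D8 only in both genotypes, the C/EBP consensus TTGCNNAA was found in 7 of 23 member sites (30.4%) and in 32.6% of 5343 such sites overall. 4 of the 7 were Pparg sites (of its 5), 2 were Rxra sites and 1 was a Ppard site, and none of the 7 Ppara sites had a match. The NFI element TTGGCA was found in 7 of 23 (30.4%, against 33.2%). The DR1 element AGGTCANAGGTCA, the PPAR and RXR site itself, was searched with up to 2 mismatches and found in 1 of 23 (4.35%, against 9.98%), Rxra site 11, with the letters AGGCCAGAGGGCA at chr2:27501019-27501031 on the minus strand.

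At the sites open at D0 only in both genotypes, the AP-1 consensus TGANTCA was found in 10 of 24 (41.7%, against 35.1% of 20656), 4 of them at Pparg and 3 at Rxra. It was also found in 7 of the 18 sites downstream of Rxra, which are of several classes (24.1% of all sites of any class held it). At D8-only sites the AP-1 consensus was in 2 of 23 (8.7%, against 9.99%). EBF (TCCCNNGGGA) was found in 1 of 23 D8-only sites and the glucocorticoid receptor palindrome in 0 of 23, against 3.07% and 3.44%. A match says no more than that these letters are in the window.

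**Figure D5:**
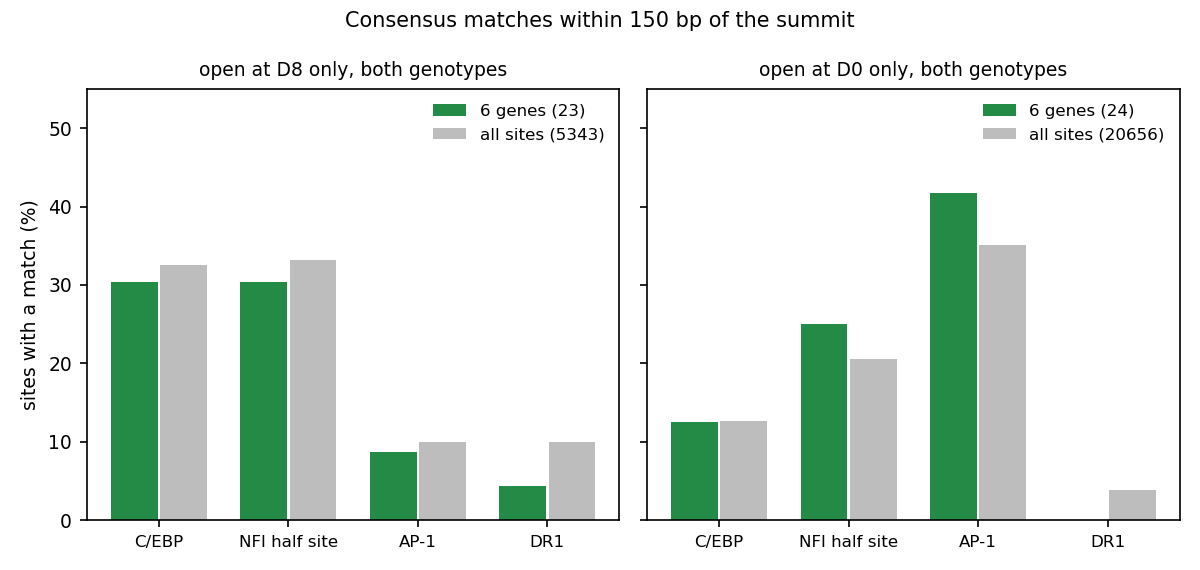
Share of sites (y axis, percent) with at least 1 match to each consensus (x axis) in the 300 bp around the summit, for member sites in green and all sites in grey, with D8-only sites on the left and D0-only sites on the right. At D8-only sites the green and grey bars stand at 30.4% and 32.6% for C/EBP and at 4.35% and 9.98% for DR1, and at D0-only sites AP-1 stands at 41.7% and 35.1%.

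3 lists of related genes give the setting of the members, each described by the sites within 100 kb of its genes. Of 13 other partners of RXR (such as Thra, Rara, Vdr and Nr1h3), 9 had a site open at D8 only in both genotypes, with a median of 1 such site and of 4 open at D0 only, and 0 had more of the first kind than of the second. Of 14 coregulators, 9 had a D8-only site and 4 had more D8-only than D0-only sites, among them Tbl1xr1 (5 and 0) and Nrip1 (3 and 2). Of 24 PPAR target genes, 20 had a D8-only site and 13 had more D8-only than D0-only sites, such as Fabp4 (14 and 1), Cd36 (13 and 3) and Lpl (9 and 0). Over all 22367 protein-coding genes 42.0% had a D8-only site and 8.37% had more D8-only than D0-only sites, and of the members only Ppara and Rxra did.

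The genes most like each member in how scaled pileup was shared over the 4 libraries were found among 14295 genes with at least 10 sites and no site in common with it. Pparg, with 18.8% (D0) and 29.2% (D8) of its signal in WT and 20.2% and 31.9% in HY, was nearest to D17Wsu104e and Chd7 (Euclidean distances of 0.00536 and 0.00679 between the shares). Ppara (19.9%, 26.8%, 23.1% and 30.1%) was nearest to Dolk and Ankrd52, at 0.00496 and 0.00584. Rxra (28.0%, 18.1%, 31.8% and 22.1%) was nearest to 2010107H07Rik, at 0.00223. Ppard was nearest to Psmc3ip and Coasy, Rxrb to Sdhaf1 and Agrp, and Rxrg, with its 6 sites, to Tmem30c and Galntl5. Each measure rests on 4 libraries.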

How the data were processed

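The data were 4 ATAC-seq libraries, 1 for each genotype and day, each with its own narrowPeak list. The authors trimmed, filtered and aligned the reads to mm9, removed PCR duplicates and called peaks. The submitters' processing notes name Bowtie2, SAMtools, Picard and deepTools, and versions and any shift for the Tn5 offset were not given in the sources used here. The deposited fold enrichment is a ratio of summit pileup to local background, the deposited -log10 p and -log10 q rate each summit, and the deposited score is a rescaled q that was not used. No peak had a -log10 q below 1.3.

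Each peak's pileup (a whole number) and background were solved from fold and -log10 p. A solution within 0.002 of the deposited value was found for 100% of peaks, and the method was tested on simulated data. The absolute number of tags is unknown. Pileups were divided by the list's lowest background (its rate), and ratios have exact (Clopper-Pearson) intervals. Peaks on assembled chromosomes that overlapped by 1 bp were merged, the highest pileup per library was kept, and a promoter ran from 1000 bp upstream to 100 bp downstream of a TSS. Annotation was GENCODE M1 on NCBIM37 (mm9), 1-based. A site was called different when a peak was in 1 library and not the other, or at 2-fold. Sites named were, per gene, up to 3 open at D8 only and 2 at D0 only in both genotypes with the highest smaller -log10 q, the strongest in 1 genotype per day, every TSS cluster and the assayed Ppara amplicons. Other sites were chosen after their values were seen. Members and lists were chosen with earlier results of these data known. Python 3.11.15, NumPy 2.4.6, pandas 2.3.3 and SciPy 1.17.1 were used. A gene among those most like Rxra is not reported here.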

Additional observations from a re-analysis of the deposited data

Results flagged for a closer look

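In 6 of 146 contrasts checked, the direction was opposite in the paired group, and none of these differences was tested. All 6 were among the 24 contrasts of whole genes, which were judged by sign alone. A single site was counted only when both intervals excluded 1, on opposite sides. By sign alone, 10 of the 61 sites open in all 4 libraries had WT and HY D8/D0 ratios on opposite sides of 1. Open sites at Ppara were 1 more in HY than in WT at D0 and the difference was -2 at D8. At Pparg the same differences were -1 at D0 and 1 at D8. At Rxrg they were -1 at D0 and 1 at D8, and its open sites differed by -1 between D8 and D0 in WT and by 1 in HY. The summed scaled pileup of Rxrg, over 6 sites, had a log2 D8/D0 of -0.23 in WT and 0.16 in HY, and a log2 HY/WT of -0.17 at D0 and 0.23 at D8. With 1 library per group, no library has another of its group to be compared with.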

How the results depend on the processing

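Of the 16 results with alternatives (all planned), 40 values stayed within 1.5 times the main count or within the interval of the main median. A further 28 values moved beyond these limits and 1 reversed. With summits within 250 bp joined in place of merged peaks, the sites open in WT only at D8 were 23 in place of 13, and under a -log10 q minimum of 5 they were 7. When all lists were cut to equal length, sites open at D0 only were 19 in WT, 18 in HY and 9 in both genotypes, those open in WT only at D0 were 8, and at D8 the order turned to 15 in HY only and 19 in WT only. Within 50 kb there were 95 sites, 22 open at D8 only in WT, 26 (WT), 27 (HY) and 15 (both) open at D0 only, 13 (HY only) and 8 (WT only) at D0, and 10 (HY only) and 5 (WT only) at D8. Among sites whose nearest TSS belongs to a member there were 75, with 16 (WT), 19 (HY) and 12 (both) open at D8 only, 23, 20 and 9 open at D0 only, 11 (HY only) and 8 (WT only) at D0, and 4 (WT only) at D8. Fewer sites enter in both of these last settings. The median HY/WT ratio at D8 reversed to 0.982 when scaled to promoters open in all 4 libraries and moved to 1.02 with the deposited fold enrichment. DR1 matches dropped from 1 to 0 with at most 1 mismatch and to 0 in a 200 bp window. Of the 173 sites, 100 kept their pattern under the -log10 q minimum of 5 and 98 with equal list lengths. In the 52 named by rule or at a promoter these were 39 and 35. The D0 peaks of Ppard site 20 and Rxrg site 2 were lost in both settings and that of Pparg site 29 in the latter. The labels gave no replicate numbers and no replicate block was fitted, and each D8/D0 ratio was taken within a genotype. At each list's background rate, depth limits the calls to summits of about 4 or 5 tags, and the limit is higher where local background is higher.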
